A study of Homo sapiens with 6 samples.

Results

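The 10 genes described here encode the G1 machinery of the cell cycle: the cyclins CCND1, CCND3, CCNE1 and CCNE2, their kinases CDK4, CDK6 and CDK2, and the inhibitors CDKN2A, CDKN2C and CDKN1B. They were taken by symbol from a count table of 21619 entries, and each symbol stood on 1 entry. PolyA RNA had been sequenced in bulk from HT1080, a human fibrosarcoma line, in 3 libraries of wild-type cells (WT) and 3 of cells that stably overexpress the glycolytic enzyme PGK1 (PGK1_OE). Neither group is labelled with any other allele or agent. The sources used here do not say what drives the introduced PGK1, whether the WT cells carry an empty vector, or whether the overexpressing cells are 1 clone or a pool. The replicates are not stated to be separate cultures, so p-values reflect library-to-library spread, possibly technical.

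In G1, D-type cyclins pair with CDK4 or CDK6 and phosphorylate the retinoblastoma protein, which frees E2F transcription factors. Cyclin E with CDK2 then adds to that phosphorylation and drives entry into S phase. INK4 proteins, among them the products of CDKN2A and CDKN2C, bind CDK4 and CDK6, whereas CIP/KIP proteins such as the CDKN1B product p27 bind cyclin-kinase complexes. HT1080 is known for an activated NRAS allele and a deleted CDKN2A locus. These proteins are also set by translation, phosphorylation and degradation, and only mRNA was measured.

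Libraries held between 34425162 and 40538274 counts. PGK1 itself, which checks the labels, took 57413 counts in WT and 1456027 in PGK1_OE, summed over 3 libraries each (24.2-fold in normalised CPM). Summed normalised CPM of 7 mesenchymal markers was between 3383 and 3865 in WT and between 5964 and 6130 in PGK1_OE, with VIM the highest of them in every library and THY1 near 0. Markers of 3 other cell types were low. The 5 epithelial markers summed to between 2.62 and 3.14 CPM in WT and at most 0.15 in PGK1_OE. EPCAM, KRT5 and KRT14 were at 0 counts throughout. ESRP1 fell from 2.34 ± 0.148 CPM in WT to 0.05 ± 0.0866 in PGK1_OE (log2 fold change -5.41, edgeR adjusted p = 0.000711). CDH1 had 17, 28 and 16 counts in WT replicates 1 to 3 and none in PGK1_OE (-7.4, edgeR adjusted p = 0.000182). The 5 leukocyte markers summed to at most 0.792 CPM with PTPRC at 0, and the 4 endothelial markers to between 4.13 and 5.38 in WT and between 10.1 and 13.3 in PGK1_OE, mostly PECAM1. Their part in the results was not tested. In bulk RNA a change in the share of cells in a cycle phase and a change in RNA per cell cannot be told apart.

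Of the 10 genes, 9 passed the low-count filter, 7 of them were higher in PGK1_OE, 2 were lower, and CDKN2A had no counts. CCNE2 and CDKN2C stood low in WT and rose the most together with CDK2, CCND3 rose more than CCND1 and CCNE1, CDKN1B rose by less than 2-fold, CDK6 fell and CDK4 moved little. A change was called at an adjusted p under 0.05 in the quasi-likelihood test of edgeR with Benjamini-Hochberg correction across the 14322 entries that entered it, and all gene-level adjusted p-values below come from that test. By this rule 71.2% of all entries changed, 35.4% upward and 35.8% downward, so a call alone says little about a gene. Among all entries, 12.0% rose and 12.1% fell by at least 2-fold. Of the G1 genes, 6 rose and 1 fell by that much. Their median log2 fold change was 1.36, against -0.02 over all entries. The genes were chosen with earlier results of these data known, so this contrast only describes the chosen set. CPM values of the groups did not overlap for any of the 9 genes, nor for 76.4% of all entries.

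**Figure D1:**
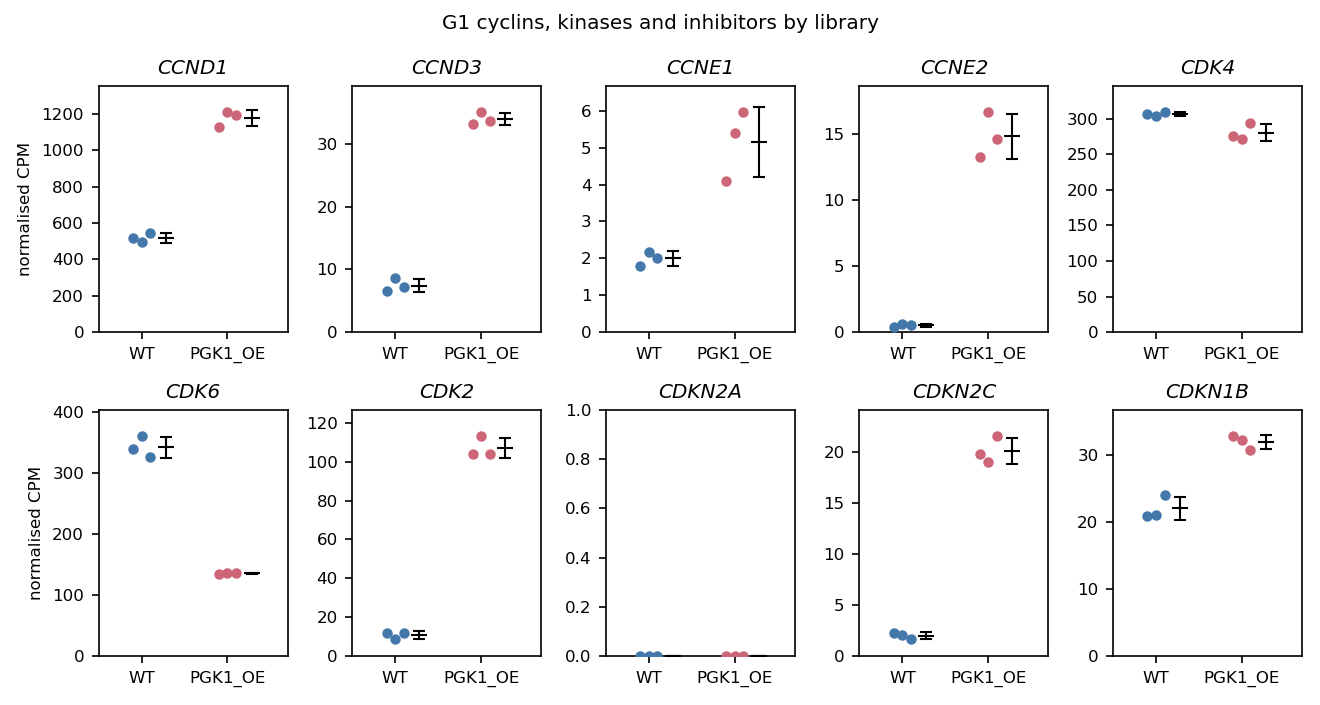
Normalised CPM (counts scaled to the TMM-adjusted library size, linear axes from 0) of the 10 G1 genes in 3 WT libraries (blue) and 3 PGK1_OE libraries (red), with the mean and SD as a bar beside the points. The groups are apart in all panels except CDKN2A, which is at 0 in all 6 libraries.

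Promoter sequence was examined where the RefSeq table (build GRCh38.p14) has a window, because genes of this group are textbook targets of E2F and MYC. The table gave 13 windows, each of 250 bases before and 50 after a start site, for 7 of the 10 genes: CCND3, CCNE1, CDK4, CDK6, CDKN1B, CDKN2A and CDKN2C. CCND1, CCNE2 and CDK2 were not matched. A 7-letter E2F form (TTGGCGC or TTCCCGC or TTCGCGC or TTGCCGC) and the E-box CACGTG bound by MYC were searched on both strands. The E2F form is in 13.0% of all 35116 windows of this length and the E-box in 7.26%. Printed below are 4 of the 13 windows, chosen after the matches were known: the CDKN2C window with E2F matches, that of CCNE1 as the cyclin E gene with a window, that of CDK4, and the CDK6 window with an E-box. Capitals mark matches to either motif.
CDKN2C, plus strand of chr1:50968456-50968755: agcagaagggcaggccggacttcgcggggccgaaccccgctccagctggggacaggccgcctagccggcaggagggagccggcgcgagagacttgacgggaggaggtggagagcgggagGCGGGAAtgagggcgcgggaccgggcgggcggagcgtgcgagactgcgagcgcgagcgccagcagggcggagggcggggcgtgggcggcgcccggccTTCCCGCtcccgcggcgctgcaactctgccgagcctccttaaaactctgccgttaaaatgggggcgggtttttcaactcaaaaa
CCNE1, plus strand of chr19:29811741-29812040: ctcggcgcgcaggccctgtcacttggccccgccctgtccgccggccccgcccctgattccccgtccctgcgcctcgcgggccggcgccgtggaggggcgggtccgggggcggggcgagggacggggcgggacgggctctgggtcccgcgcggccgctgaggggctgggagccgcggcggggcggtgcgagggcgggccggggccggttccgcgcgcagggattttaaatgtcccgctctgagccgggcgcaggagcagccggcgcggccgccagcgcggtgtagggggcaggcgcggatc
CDK4, minus strand of chr12:57752261-57752560: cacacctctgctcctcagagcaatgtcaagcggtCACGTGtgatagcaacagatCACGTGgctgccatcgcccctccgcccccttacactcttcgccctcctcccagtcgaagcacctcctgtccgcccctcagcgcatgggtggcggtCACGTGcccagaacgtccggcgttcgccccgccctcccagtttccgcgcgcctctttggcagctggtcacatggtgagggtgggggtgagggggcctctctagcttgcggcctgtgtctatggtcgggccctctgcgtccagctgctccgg
CDK6, minus strand of chr7:92836524-92836823: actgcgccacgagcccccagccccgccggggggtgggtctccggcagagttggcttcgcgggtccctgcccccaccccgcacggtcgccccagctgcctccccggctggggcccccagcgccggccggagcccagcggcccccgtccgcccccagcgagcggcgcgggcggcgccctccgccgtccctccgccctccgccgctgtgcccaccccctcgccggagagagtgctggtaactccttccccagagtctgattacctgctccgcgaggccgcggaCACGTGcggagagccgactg
Counted from the start site, the CDKN2C window has 2 matches of TTCCCGC, on the reverse strand at -131 to -125 and on the forward strand at -34 to -28. It was the only one of the 13 windows with an E2F match, and the form with a further T in front was in none of them. The CCNE1 window has neither motif. The CDK4 window holds 3 E-boxes, starting at -216, -196 and -101, and the printed CDK6 window 1, at position 31 after the start. The other CDK6 window holds none. The other CDKN2C windows, at starts upstream and downstream of the one printed, hold 1 E-box each. The GC box GGGCGG, in 45.0% of all windows, was in 9 of the 13 and in at least 1 window of each of the 7 genes, 7 times in that of CCNE1. The AP-1 form TGACTCA (4.95% of all windows), the CRE TGACGTCA (1.85%) and the CHR element TTTGAA (15.2%) were in none of the 13. AP-1 and CRE forms share their first letters but do not contain each other. A match is a run of letters, not a measured binding site, and no match says only that these letters are not in the window.

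Among D-type cyclins, the partners of CDK4 and CDK6, CCND1 (chromosome 11, 69641087 to 69654474 on the plus strand of GRCh38) was the most abundant. Its normalised CPM was 517, 493 and 545 in WT replicates 1 to 3, against 1126, 1208 and 1192 in PGK1_OE replicates 1 to 3, and values below keep that order. Every PGK1_OE library was above every WT library, by 2.27-fold on the means (log2 fold change 1.18 with SE 0.04, edgeR adjusted p = 7.61e-10). CCND3 (chromosome 6, 41934933 to 42050357, minus strand) stood at 6.52, 8.66 and 7.13 CPM in WT and at 33.2, 35.1 and 33.7 in PGK1_OE. That is a 4.57-fold rise with groups far apart (2.19 with SE 0.10, edgeR adjusted p = 4.98e-09). CCND2, the remaining D-type cyclin, moved the other way: it had 503, 432 and 439 counts in WT but only 58, 56 and 46 in PGK1_OE, 9-fold less (log2 fold change -3.17 with SE 0.14, edgeR adjusted p = 3.03e-09). CCND1 shares 497 exon bases with LTO1 on the opposite strand, which went from 39.8 ± 1.98 to 15.7 ± 1.74 CPM, and CCND2 shares 126 with CCND2-AS1, which was not analysed here. CCND2 also shares 989 exon bases with AC008012.1 on the same strand, which had 0 counts in all 6 libraries. Of 14322 entries, 283 changed by more on the log2 scale than CCND2, 778 by more than CCND3 and 2952 by more than CCND1.

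Levels of different genes were compared in the authors' FPKM, which is scaled to length. CPM and FPKM of a gene did not always change by the same factor, so the length used may differ between libraries. The shares, sums and orders in FPKM below carry that limit. The 3 D-type cyclins together had 120, 117 and 127 FPKM in WT and 263, 281 and 276 in PGK1_OE. CCND1 made up 95.8%, 94.9% and 95.8% of that sum in WT and 93.0%, 93.4% and 93.3% in PGK1_OE. The groups did not overlap, and the difference of -2.28 percentage points had an exact two-sided permutation p of 0.1, the smallest that 3 against 3 libraries can give. On raw counts, which are not per length, the same share differed by 0.792 points in the opposite direction, so its direction rests on the length scaling. CCND1 carried nearly all D-type cyclin mRNA in both groups, and the gap between CCND3 and CCND2 below it widened: CCND3 had 3.62 ± 0.546 and CCND2 1.82 ± 0.0966 FPKM in WT, against 18.3 ± 0.108 and 0.191 ± 0.00818 in PGK1_OE (SD, n = 3).

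The E-type cyclins, which activate CDK2, were the scarcest of the measured G1 cyclins in WT. CCNE2 (chromosome 8, 94879770 to 94896678, minus strand) had 15, 22 and 19 counts in WT against 530, 657 and 514 in PGK1_OE. In CPM this was 0.396, 0.623 and 0.519 against 13.2, 16.6 and 14.6, a 28.9-fold rise (log2 fold change 4.85 with SE 0.19, edgeR adjusted p = 1.13e-09). Only 86 of 14322 entries changed by more. With 56 counts over the WT group, the ratio of the group totals per sequenced count was 28.1 with an exact 95% counting interval of 21.6 to 37.4, which covers counting error only. CCNE2 shares 1629 exon bases with INTS8 on the opposite strand. The strand setting of the counting is not given, so reads of overlapping genes cannot be told apart. INTS8 went from 51.7 ± 2.37 to 87.4 ± 4.49 CPM, a 1.69-fold rise.

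CCNE1 (chromosome 19, 29811898 to 29824308, plus strand) stood at 1.79, 2.18 and 2.02 CPM in WT and at 4.10, 5.40 and 5.96 in PGK1_OE. The groups were apart, with PGK1_OE replicate 1 lowest of its group, and the rise was 2.58-fold (log2 fold change 1.36 with SE 0.21, edgeR adjusted p = 0.000104). The balance within the pair turned over. CCNE2 made up 10.5%, 13.9% and 9.83% of cyclin E FPKM in WT and 70.0%, 63.1% and 62.1% in PGK1_OE, a difference of 53.7 percentage points without overlap (exact two-sided permutation p = 0.1, the smallest possible). Both together had 1.32 ± 0.222 FPKM in WT and 7.87 ± 0.560 in PGK1_OE (SD, n = 3), a 5.98-fold difference, and remained far below the D-type sum.

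**Figure D2:**
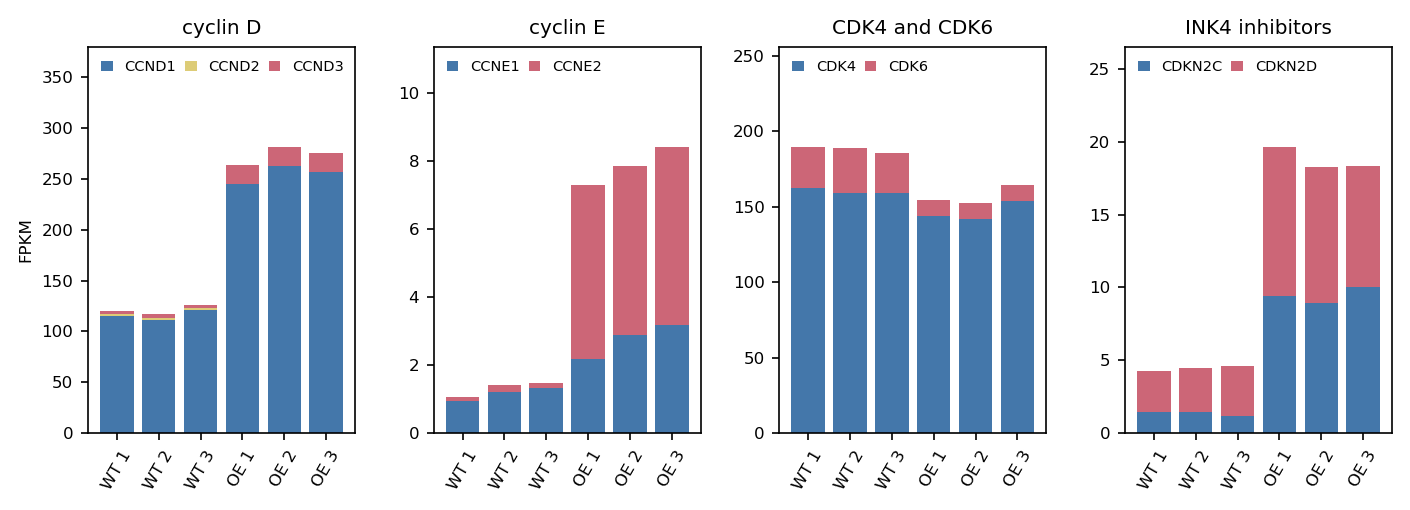
FPKM by library (bars from 0, stacked by gene) of the D-type cyclins, the E-type cyclins, CDK4 with CDK6, and the INK4 inhibitors with counts (CDKN2A and CDKN2B are at 0); OE stands for PGK1_OE. Cyclin E goes from mostly CCNE1 in WT to mostly CCNE2 in PGK1_OE, D-type cyclin stays mostly CCND1, and the CDK6 part of the kinase bars shrinks.

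Of the kinases, CDK2 (chromosome 12, 55966769 to 55972784, plus strand), the partner of cyclin E and cyclin A, rose the most. It stood at 12.1, 8.72 and 12.0 CPM in WT and at 104, 113 and 104 in PGK1_OE. The lowest PGK1_OE library was several times the highest WT library, and the rise was 9.78-fold (log2 fold change 3.29 with SE 0.12, edgeR adjusted p = 8.95e-08). On the opposite strand CDK2 shares 565 exon bases with AC025162.1, which was not analysed here, and 89 with PMEL, which stood at 2.62 ± 0.435 CPM in WT and 4.03 ± 0.250 in PGK1_OE. CDK6 (chromosome 7, 92604921 to 92836594, minus strand) went the other way, from 339, 360 and 327 CPM to 135, 136 and 136. This 2.52-fold fall (-1.34 with SE 0.04, edgeR adjusted p = 2.17e-10) left the PGK1_OE libraries close together, with an SD of 0.960 CPM.

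CDK4 (chromosome 12, 57747727 to 57756013, minus strand), the other partner of D-type cyclins, barely moved. Its CPM was 306, 304 and 309 in WT and 276, 272 and 294 in PGK1_OE. The groups did not overlap, but the difference amounted to only -0.13 in log2 (SE 0.04, edgeR adjusted p = 0.0120), and 12465 entries changed by more. Leaving out WT replicate 3 (edgeR adjusted p = 0.0520) or PGK1_OE replicate 2 (0.0633) ended the call, as did a threshold of 0.01. CDK4 shares 1369 exon bases with TSPAN31 on the opposite strand, which went from 43.9 ± 3.32 to 29.7 ± 3.21 CPM. CDK4 and CDK6 together had 188 ± 2.39 FPKM in WT and 157 ± 6.48 in PGK1_OE. CDK6 made up 14.4%, 15.6% and 14.3% of that sum in WT and 6.86%, 7.01% and 6.46% in PGK1_OE, a difference of -8.00 percentage points without overlap (exact two-sided permutation p = 0.1, the smallest possible). Per length, most of the mRNA for these 2 kinases was CDK4 in both groups. On CPM, which is not per length, CDK6 was above CDK4 in each WT library and below it in each PGK1_OE library.

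Among the inhibitors, CDKN2A (chromosome 9, 21967753 to 21995301, minus strand), which encodes p16 and ARF, had 0 counts in all 6 libraries. A count of 0 allows up to 3 counts, which is between 0.0740 and 0.0871 CPM by library, so the mRNA was not detectable at this depth in either group. CDKN2B, its INK4 neighbour, was also at 0 throughout. Of the other 9p21 genes on the list, MTAP was low, with 57, 63 and 88 counts in WT and 97, 84 and 65 in PGK1_OE (log2 fold change 0.17, edgeR adjusted p = 0.589). KLHL9 (116 ± 2.47 CPM in WT) and FOCAD (63.4 ± 2.54 CPM) were well expressed, DMRTA1 (6.41 ± 0.848) and IFNE (1.72 ± 0.245) less so, HACD4 had 41 counts over the WT libraries and ELAVL2 none. Of the 6 tested, DMRTA1 (-0.94) and KLHL9 (-0.18) fell, IFNE (0.70) and FOCAD (0.18) rose, and MTAP and HACD4 (0.71, edgeR adjusted p = 0.163) did not pass. Calls are no more frequent here than among all entries, of which 71.2% were called. DNA was not measured.

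CDKN2C (chromosome 1, 50960745 to 50974633, plus strand) encodes p18, an INK4 protein that binds CDK4 and CDK6. It had 87, 72 and 62 counts in WT against 792, 753 and 759 in PGK1_OE. In CPM it stood at 2.30, 2.04 and 1.69 against 19.8, 19.0 and 21.5, a 10-fold rise with no overlap (log2 fold change 3.32 with SE 0.14, edgeR adjusted p = 1.69e-09). Only 239 entries changed by more. CDKN2D, the INK4 gene of p19, rose as well, from 4.24 ± 0.345 to 14.2 ± 1.27 CPM (1.74 with SE 0.13, edgeR adjusted p = 1.76e-07). The INK4 sum went from 4.44 ± 0.149 to 18.8 ± 0.789 FPKM, a 4.23-fold rise, and stayed below the FPKM sum of CDK4 and CDK6 in every library.

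CDKN1B (chromosome 12, 12715058 to 12722371, plus strand), the gene of p27, moved less. It stood at 20.9, 21 and 24.0 CPM in WT and at 32.7, 32.1 and 30.7 in PGK1_OE, a 1.45-fold rise without overlap (log2 fold change 0.54 with SE 0.07, edgeR adjusted p = 4.20e-05). Its target kinase CDK2 rose far more, and CDKN1B per CDK2 in FPKM changed sign on the log2 scale: 0.52, 1.07 and 0.81 in WT against -2.06, -2.16 and -2.08 in PGK1_OE. The difference was -2.90 (exact two-sided permutation p = 0.1, the smallest possible). CDKN1A, the gene of p21 and the most abundant inhibitor, was at 297, 307 and 292 CPM in WT and 283, 228 and 247 in PGK1_OE (-0.24 with SE 0.07, edgeR adjusted p = 0.0179). Leaving out WT replicate 1 (adjusted p = 0.0523 in edgeR), WT replicate 2 (0.120) or PGK1_OE replicate 3 (0.0547) ended that call, as did a threshold of 0.01. CDKN1C had 4 counts in WT replicate 1 and none in the other 5 libraries.

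Ordered by FPKM, the WT libraries ran CDK4 (160 ± 1.93), CCND1 (116 ± 5.08), CDK6 (27.8 ± 1.58), CDKN1B (7.76 ± 0.623), CDK2 (4.51 ± 0.815), CCND3 (3.62), CDKN2C (1.37 ± 0.154), CCNE1 (1.17 ± 0.195) and CCNE2 (0.151 ± 0.0421). Within this order CDK2 overlapped CCND3, and CDKN2C overlapped CCNE1. In PGK1_OE the order was CCND1 (255 ± 9.03), CDK4 (147 ± 6.49), CDK2 (43.7 ± 2.22), CCND3 (18.3), CDK6 (10.7 ± 0.0439), CDKN1B (10.2 ± 0.228), CDKN2C (9.46 ± 0.540), CCNE2 (5.11 ± 0.130) and CCNE1 (2.76 ± 0.517). Here CDKN1B overlapped CDKN2C. CCND1 passed CDK4 and CDK2 passed CDK6, so that PGK1_OE cells had more CDK2 than CDK6 mRNA per length in each library, the reverse of WT.

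**Figure D3:**
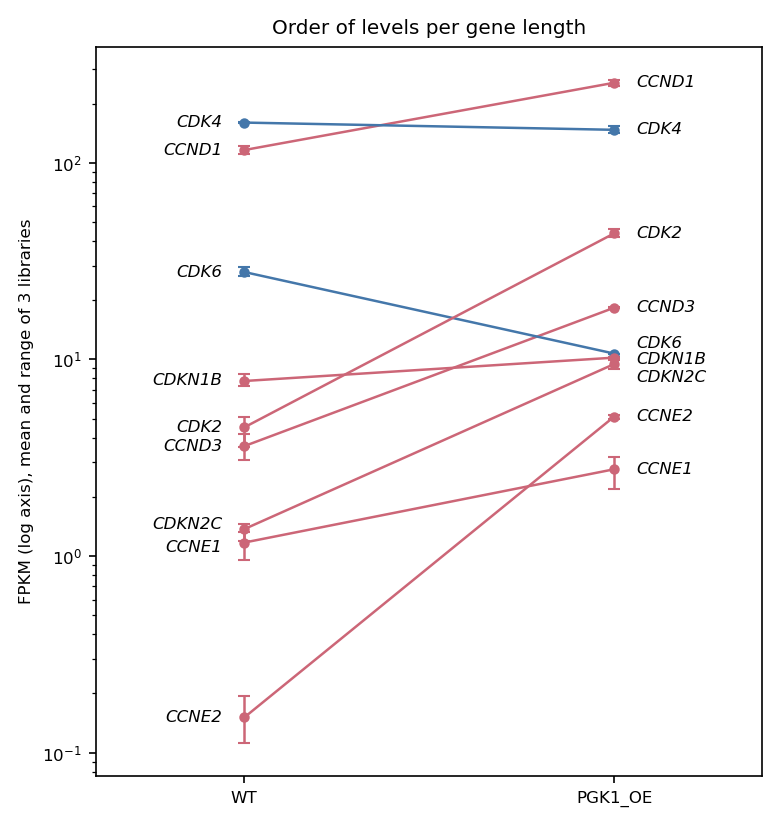
FPKM per gene (log axis) in WT and PGK1_OE, with points at the mean of 3 libraries, bars over their range, and red lines for genes higher and blue for genes lower in PGK1_OE. CDKN2A, listed at 0, is not drawn; the steepest line is CCNE2, and the CDK2 and CDK6 lines cross.

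Of 6 tested genes for activation, inhibition or folding of the kinases, 3 rose and 3 fell. The shares over all entries were 35.4% and 35.8%. The 3 subunits of the CDK-activating kinase fell: CCNH from 104 ± 1.83 to 45.1 ± 0.988 CPM (log2 fold change -1.20), CDK7 from 99.4 ± 2.22 to 62.6 ± 3.89 (-0.67) and MNAT1 from 68.9 ± 1.60 to 48.4 ± 1.02 (-0.51). CDC25A, the phosphatase that removes inhibitory phosphate from CDK2, rose from 8.11 ± 0.913 to 39.2 ± 4.35 CPM (2.27 with SE 0.11, edgeR adjusted p = 6.16e-09). WEE1, a kinase that adds such phosphate to CDK1 and CDK2, rose as well (1.33 with SE 0.07), and the CDK4 chaperone CDC37 rose by 0.12. CCNH shares 771 exon bases with RASA1 on the opposite strand.

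Of 5 other cyclin and kinase genes tested, 4 rose and CCND2 fell. Over all entries 35.4% rose and 35.8% fell. CCNG2, an unconventional cyclin linked to cell cycle arrest, rose from 17.7 ± 0.565 to 44.1 ± 6.11 CPM (log2 fold change 1.32), and CCNC (0.52), CDK3 (0.52) and CCNG1 (0.12) rose by less. Of 14 tested genes for turnover of G1 cyclins and p27, 8 rose, 3 fell and 3 did not pass, beside 71.2% of all entries called. The list median was 0.25. SKP2, the F-box protein that marks p27 for degradation, went from 8.57 ± 1.23 to 61.2 ± 9.09 CPM (2.84 with SE 0.15, edgeR adjusted p = 1.51e-06). UBAC1, a subunit of another p27 ligase, rose by 1.14, the cullin partner RBX1 by 1.25 and DDB1 by 0.74 on the log2 scale. SKP1 (0.52, edgeR adjusted p = 0.108), AMBRA1 (-0.15, 0.0613) and the cyclin E receptor FBXW7 (-0.01, 0.878) did not pass. The 3 that fell, named after their values were seen, were FBXO4 (-1.12), FBXO31 (-0.77) and RNF123 (-0.16).

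Downstream of the kinases, 6 of 13 tested E2F and pocket protein genes rose, 6 fell and RBL2 did not pass (-0.09, edgeR adjusted p = 0.115). Over all entries 35.4% rose and 35.8% fell. The list median was -0.09. TFDP1, the dimer partner of E2F proteins, rose from 84.8 ± 5.47 to 291 ± 7.70 CPM (log2 fold change 1.78), and the pocket protein RBL1 from 8.32 ± 0.355 to 37.6 ± 3.54 (2.18), whereas E2F7 (-0.89) and E2F5 (-1.40) fell. The rest of the list is named after its values were seen. E2F4 fell from 212 ± 11.5 to 148 ± 1.39 CPM (-0.51), and E2F6 (-0.34), TFDP2 (-0.26) and E2F3 (-0.12) fell by less. E2F1 rose from 2.88 ± 1.17 to 30.0 ± 3.29 CPM (3.38 with SE 0.35), and E2F8 rose by 3.65 on the log2 scale. E2F2 had 7 counts in WT and 446 in PGK1_OE, which is 59.0 times as many per sequenced count (exact 95% limits from counting error 28.4 and 148). RB1 itself, the substrate of cyclin D kinases, rose by only 0.11, from 195 ± 4.86 to 211 ± 7.22 CPM. All 5 tested cyclin and kinase genes of later phases rose at least 2-fold: CCNA2 (2.39), CCNF (2.31), CCNB1 (1.94), CCNB2 (1.48) and CDK1 (1.13). A rise of at least 2-fold was called in 12.0% of all entries. CCNA1 had no counts in WT and 3, 4 and 2 in PGK1_OE.

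Of 12 transcription factors known to act on G1 cyclin or inhibitor genes, 2 rose, 7 fell and 3 did not pass (median -0.73). Over all entries 35.4% rose and 35.8% fell, with a median of -0.02. MYC, for which CDK4 is a classical target, went from 419, 423 and 413 CPM in WT to 31.8, 34.8 and 33.3 in PGK1_OE, a 12.6-fold fall (log2 fold change -3.65 with SE 0.05, edgeR adjusted p = 3.85e-13). CDK4, whose window holds 3 E-boxes, differed by the -0.13 given above. ETS1 (-2.01), ETS2 (-1.61) and the AP-1 subunit JUN (-1.37) fell as well. Whether any of these factors bears on the G1 genes here was not tested. FOS (0.60, edgeR adjusted p = 0.125), FOXO4 (0.38, 0.0537) and FOXO1 (-0.20, 0.130) did not pass. The 2 that rose, named after their values were seen, were STAT3 (0.80) and CTNNB1 (0.63).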

How the data were processed

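Bulk polyA RNA-seq of 6 HT1080 libraries was used, 3 per group, grouped by sample title, with table columns matched through the sample descriptions. The labels give all libraries 1 batch. The tools fastp and HISAT and the build hg38 are named per the submitters' processing notes. Which counter made the counts, whether it used strand, and the release of gene models: not given in the sources used here. Raw counts per gene fill one deposited table, and FPKM values made by the authors, scaled to length and depth, fill the other deposited table. MSTRG entries, of the kind an assembled annotation gives, took between 0.772% and 1.00% of counts.

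Counts were fitted in R 4.3.3 with edgeR 4.0.16 (filterByExpr by group, TMM, robust quasi-likelihood, group as the only term, two-sided) on all 14322 entries that passed. Normalised CPM uses the TMM-scaled library sizes, and levels are mean ± SD of 3 libraries. The SE of a log2 fold change was obtained by dividing its size by the root of F. Libraries of one group were not duplicates: chi-square over degrees of freedom lay between 7.47 and 14.1. Counts were also simulated for PGK1_OE against WT over 14085 genes, with 200 changed. The test called 63.6% of genes shifted by 1 log2 unit and 84.4% of those shifted by 2. Among 162 calls 11.1% were wrong, a share above the threshold of 0.05. In the real comparison 71.2% of tested entries were called. Recovery and error depend on the share of changed genes, so the simulated rates do not give those of the real comparison.

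The genes and lists were chosen with earlier results of these data known. Named are all 10 genes, all members of lists of at most 6, and otherwise the up to 4 with the smallest adjusted p and those not called. Positions and overlaps are from GENCODE 29 (GRCh38), and promoter windows from RefSeq. Alternatives were RLE factors, library totals, PGK1 left out of scaling, 2 other filters, DESeq2 1.42.0, limma 3.58.1 (voom, or FPKM with pseudocounts of 1 and 0.1), a replicate block, each library left out and an adjusted p of 0.01.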

Additional observations from a re-analysis of the deposited data

How the results depend on the processing

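Across 17 alternatives the 7 rises stayed called, and CDK6 stayed called lower. The number of G1 genes that fell was 1 in place of 2 at an adjusted p under 0.01, and ranged from 1 to 2 over the fits that left out 1 library, the gene concerned being CDK4 (log2 fold change -0.17 to -0.10 over all alternatives). CCNE2 ranged from 2.41 on the log2(FPKM + 1) scale, which understates low genes, to 5.02, and CCNE1 from 0.79 to 1.51. CDKN2C ranged from 2.14 to 3.43 and CCND2 from -3.21 to -1.24. Among all entries 4182 to 5141 rose and 4430 to 5443 fell. Of the genes on the lists around them, 29 rose and 24 fell, and 24 to 31 and 21 to 26 over the alternatives. With a pseudocount of 0.1 the CCNE2 share differed by 48.1 percentage points. On raw counts the CDK6 share differed by -20.1 points and the CCND1 share by 0.792, with reversed direction. Same-numbered libraries did not deviate together (r = -0.0134, -0.0129 and 0.0952), and not every library correlated best with its own number. No pairing by number was seen, but 3 libraries per group cannot exclude that same-numbered libraries were prepared together. With the replicate number as a block 7 G1 genes rose and 2 fell, and 4973 entries rose and 4970 fell. Low counts limit CCNE2 and CCNE1 in WT, and CDKN2A cannot be tested at 0.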

Other observations

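Counts and FPKM can disagree in direction for a gene of this pathway. CUL4A, a cullin of the ligase that targets several cell cycle proteins, rose from 129 ± 2.97 to 139 ± 4.60 CPM (log2 fold change 0.11, edgeR adjusted p = 0.0258), while its deposited FPKM went from 44.1 ± 1.66 to 33.9 ± 1.82. It shares 437 exon bases with PCID2 on the opposite strand. TFDP2, a second dimer partner of E2F proteins, differed by little in CPM (99.7 ± 0.541 to 83.4 ± 2.87) and by more in FPKM (26.9 ± 4.43 to 12.1 ± 1.25). Both genes were picked because of these values. For the 9 tested G1 genes the direction was the same in both units, but the size could differ. CDKN2C went from 2.01 ± 0.302 to 20.1 ± 1.30 CPM, and from 1.37 ± 0.154 to 9.46 ± 0.540 FPKM.

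In WT FPKM, CCNE2 stood below CCNE1, CCND3 below CCND1 and CDK6 below CDK4, and each lower gene changed more than its partner. CCNE2 rose 28.9-fold and CCNE1 2.58-fold, CCND3 rose 4.57-fold and CCND1 2.27-fold, and CDK6 fell 2.52-fold while CDK4 went to 0.916 of its WT level. CCND2, the lowest D-type cyclin in WT FPKM, fell 9-fold. On CPM, CDK6 (342) was above CDK4 (306) in WT, so its place in this pattern rests on the length scaling.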
